A study of Mus musculus with 49 samples.

Results

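The genes described here were the nucleoporins and the nuclear transport receptors of mouse CD8+ T cells. They were chosen by symbol: every gene named Nup, Kpna, Kpnb, Xpo, Ipo or Tnpo followed by its number or letter, counted on its longest transcript, with a mean of at least 1 RPKM (reads scaled to transcript length and to the mapped reads of the library) over the libraries. Of 45 symbols with such a name, 42 passed and are called the members below, out of 23992 symbols in the whole table and 10735 symbols at that level. The rule left out *Nup210l* (mean 0.405 RPKM), *Nup62cl* (0.0153 RPKM) and *Kpna7* (0.00110 RPKM). The members just inside it were *Nup35* at 5.65 RPKM and *Xpo7* at 6.00 RPKM, so the threshold fell in a wide gap. At the upper end stood *Kpnb1* at a mean of 70.8 RPKM, *Nup210* at 61.8 RPKM, *Nup153* at 46.5 RPKM, *Kpna2* at 45.5 RPKM and *Ipo5* at 40.6 RPKM. All 42 members were among the 15566 genes that had enough reads to be tested.

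The nuclear pore is a large ring-shaped channel through the nuclear envelope. Its scaffold is made of a Y-shaped complex in the outer rings and an inner ring, its channel is filled by nucleoporins rich in phenylalanine-glycine (FG) repeats, and a basket reaches into the nucleus. Importins carry proteins in and exportins carry proteins and RNA out, and the small GTPase RAN sets the direction of both. T cells that leave the resting state grow, divide and build new nuclei. IL-2 acts on CD8+ T cells through the transcription factors STAT5A and STAT5B, each of which is phosphorylated on a C-terminal tyrosine.

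The study made mice in which that tyrosine of *Stat5a* or of *Stat5b* was replaced by phenylalanine on both alleles (knockin, KI) by CRISPR/Cas9 editing of hybrid zygotes, and bred them back to C57BL/6J. CD8+ T cells were purified from spleens by a kit that removes other cells, and cultured with recombinant human IL-2 at 500 IU/ml. RNA was taken at 0, 4, 24 and 48 hr from homozygous *Stat5a* KI cells and their wild-type (WT) littermates, and likewise from homozygous *Stat5b* KI cells and theirs, which gave 16 groups of 3 libraries. No group was kept in culture for 4, 24 or 48 hr without IL-2. Differences from 0 hr are called the response to IL-2 below, and IL-2 and time in culture cannot be told apart in them. The 2 mouse lines are called the *Stat5a* line and the *Stat5b* line, each with WT and KI cells. The mice were adults of both sexes, the mutation was present in every cell of the body from conception, and how many founders stand behind each line is not given in the sources used here. Whether the 3 libraries of a group came from separate mice is not given in the sources used here, so the p-values measure the spread between these libraries.

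Libraries held between 17369112 and 60200653 reads on longest transcripts, with a median of 41410666. One further library, replicate 3 of *Stat5a* KI cells at 4 hr, had 1028515 such reads, which was 5.68% of its mapped reads, and was left out, so that 47 libraries were used and that group had 2. In the others this share ran from 44.9% to 84.4%, and the lowest was replicate 2 of *Stat5a*-line WT cells at 4 hr, which also had the fewest reads. RPKM was scaled to all mapped reads and therefore moves with this share. Fold changes were computed from counts scaled among the libraries by edgeR's TMM factors and do not carry it. That library also stood apart in its profile: the chi-square per gene of its counts was 200.3 and 203.6 against the other 2 libraries of its group, which had 21.7 between them. Its members summed to 389.6 RPKM, against 758 and 715 RPKM. Counts and fold changes of the members in the *Stat5a* line at 4 hr are therefore given with and without it, and medians over all genes only with it.

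The label of the cells was checked on marker genes. *Cd8a* lay between 81.0 and 343 RPKM with a median of 226, while *Cd4* lay between 0.576 and 19.5 RPKM with a median of 6.67. RNA of other cells was also present, with more B-cell RNA in KI cells. The summed RPKM of 6 B-cell markers, of which *Cd79a* was the most abundant, had a median of 52.7 in WT and 213 in KI cells of the *Stat5b* line at 0 hr, and of 12.1 and 118.99 at 48 hr. In the *Stat5a* line these sums were 29.6 and 105 at 48 hr. Markers of myeloid and red cells are given with the KI comparison below.

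At 48 hr of IL-2 in WT cells, most of the pore scaffold and most transport receptors stood higher than at 0 hr, and the largest differences were those of *Kpna2*, *Nup37* and *Nup43*. By the quasi-likelihood test of edgeR, with p-values adjusted by Benjamini-Hochberg over 15566 genes, 36 of 42 members were higher at an adjusted p of at most 0.05 in the *Stat5a* line, beside 34.1% of all genes tested. In the *Stat5b* line 36 of 42 were higher, beside 33.1% of all genes. With a fold change of at least 2 in addition, which is what "called" means below, 22 members were called higher in the *Stat5a* line (14.3% of all genes) and 23 in the *Stat5b* line (14.6%). Among genes with a mean of at least 1 RPKM, as all members have, the shares called higher were 17.0% and 17.3%. The median log2 fold change of the members was 1.03 and 1.18, against -0.12 and -0.13 for all genes and 0.14 and 0.10 for genes at 1 RPKM or more. In bulk RNA, fewer cells of a type and less RNA per cell cannot be told apart.

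**Figure D1:**
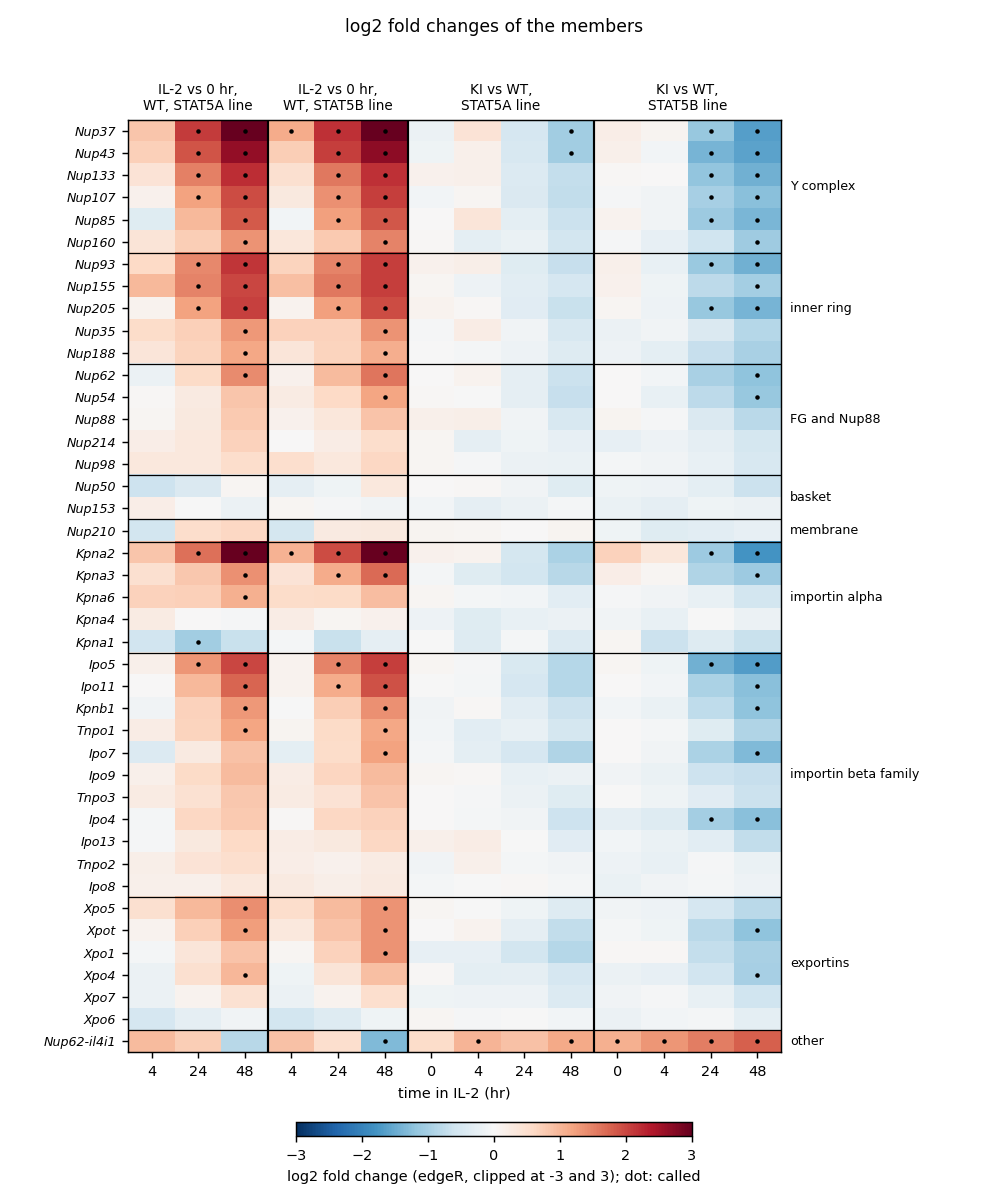
Log2 fold changes of the 42 members (ordered by role from top to bottom) in each comparison (left to right, by hours with IL-2), from edgeR. Blue and red mark lower and higher values, clipped at -3 and 3, and dots mark calls. The members of the Y complex and the inner ring were higher at 48 hr of IL-2 in WT cells and lower at 48 hr in KI cells, more so in the *Stat5b* line, while *Nup153* of the basket stayed between -0.28 and 0.21.

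The response was ordered in time. At 4 hr in the *Stat5a* line none of the 42 members was called higher (10.0% of all genes were), although 21 members had an unadjusted p under 0.05 in that direction, and 0 were called by DESeq2 or by limma. Without replicate 2 of the WT cells at 4 hr, the library that stood apart, 3 were called higher (6.42% of all genes), namely *Nup155*, *Nup37* and *Nup62-il4i1*, and 26, in place of 21, were higher at adjusted p alone (28.3%, in place of 29.5%, of all genes). In the *Stat5b* line *Nup37* and *Kpna2* were called at 4 hr, which was 2 members beside 5.83% of all genes. At 24 hr 9 members were called higher in the *Stat5a* line (8.72% of all genes) and 12 in the *Stat5b* line (9.07%). On the RPKM scale, the 3 WT libraries at 0 hr were all below the 3 at 24 hr, and these all below the 3 at 48 hr, for 35 members in the *Stat5a* line. This order was shown by 21.1% of all genes. In the *Stat5b* line 32 members showed it, beside 20.8%.

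The Y complex, which coats the membrane in the 2 outer rings of the pore, was represented by 6 members. All 6 were called higher at 48 hr in both lines, with a median log2 fold change of 2.09 and 2.13. Further subunits of the Y, such as *Ahctf1*, *Sec13* and *Seh1l*, have names outside the symbol rule and were listed apart. Each member was given a single role by its symbol. *Nup37*, a small subunit of the long arm of the Y (chr10:88146976-88178395, mm10), was measured in WT cells of the *Stat5b* line at 2.255, 1.89 and 2.81 RPKM at 0 hr and 27.4, 26.5 and 25.8 RPKM at 48 hr. In the *Stat5a* line the values were 1.87, 1.69 and 2.48 RPKM and 21.7, 25.3 and 25.3 RPKM. The libraries of the 2 times did not overlap in either line, and the log2 fold changes were 3.37 ± 0.19 (SE; adjusted p = 5.46e-18, edgeR) and 3.34 ± 0.19 (adjusted p = 6.01e-18, edgeR).

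*Nup43* (chr10:7667504-7678886), another peripheral subunit of the Y, rose by 2.64 ± 0.12 and 2.69 ± 0.12 on the log2 scale in the *Stat5a* and *Stat5b* lines. Its WT libraries of the *Stat5b* line went from 3.19, 3.70 and 4.01 RPKM to 27.2, 26.4 and 25.7 RPKM, again with no overlap. The core subunits *Nup133*, *Nup107* and *Nup85* rose by between 1.83 and 2.23 in the *Stat5a* line and by between 1.87 and 2.18 in the *Stat5b* line. *Nup160*, which sits where the arms of the Y meet, had the smallest rise among the members of the complex, 1.35 and 1.49.

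The inner ring, which lines the pore at the plane of the membrane, was called for 5 of 5 members in both lines, with medians of 2.00 and 1.97. *Nup93* (chr8:94214564-94328100), the linker that holds this ring together, stood at 6.78, 7.31 and 7.74 RPKM in *Stat5a*-line WT cells at 0 hr and at 35.1, 40.1 and 37.0 RPKM at 48 hr. Its log2 fold change was 2.15 ± 0.09 in that line and 2.08 ± 0.09 in the *Stat5b* line, where it went from 8.21, 8.22 and 8.33 RPKM to 39.6, 37.7 and 41.1 RPKM. *Nup155*, another scaffold subunit, was already higher at 4 hr, by 0.98 and 0.91, and reached 2.003 and 2.07 at 48 hr. The 4 hr value of the *Stat5a* line was 1.01 without the library that stood apart, past the fold threshold. The large subunits *Nup205* and *Nup188*, which are related in structure, differed in size of response: *Nup205* rose by 2.04 and 1.97, and *Nup188* by 1.17 and 1.10, a difference between genes that was not tested.

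The FG nucleoporins, whose repeats form the barrier that transport receptors cross, were grouped with *Nup88*, a partner of *Nup214* on the cytoplasmic face that has no such repeats. Of these 5 members, 1 and 2 were called in the *Stat5a* and *Stat5b* lines, with medians of 0.80 and 0.85. The difference from the scaffold groups was not tested. *Nup62* (chr7:44816088-44831836), the core of the central channel, was called in both. It went from 17.7, 17.8 and 18.7 RPKM to 51.7, 59.7 and 55.2 RPKM in the *Stat5a* line, a log2 fold change of 1.41 ± 0.09, and rose by 1.61 ± 0.09 in the *Stat5b* line. *Nup54*, its partner in the channel, was called in the *Stat5b* line at 1.18 and reached 0.84 in the *Stat5a* line. *Nup98*, which also occurs away from the pore, rose by 0.54 and 0.62, short of the fold threshold.

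The basket and *Nup210*, the only membrane nucleoporin among the members, had smaller 48 hr values than the scaffold, a difference between genes that was not tested. *Nup153*, the main anchor of the basket (chr13:46679902-46727849), was measured at 44.6, 48.03 and 43.1 RPKM at 0 hr and 46.96, 47.6 and 45.1 RPKM at 48 hr in WT cells of the *Stat5a* line, and at 47.2, 42.1 and 41.4 RPKM and 46.2, 44.6 and 47.5 RPKM in the *Stat5b* line. Its libraries lay close together at both times, and the log2 fold changes were -0.17 (adjusted p = 0.0623, edgeR) and -0.09 (adjusted p = 0.3, edgeR). At 4 hr it was higher in the *Stat5a* line, by 0.21 (adjusted p = 0.0273, edgeR; 0.22 without replicate 2), with libraries at 66.6, 35.6 and 52.7 RPKM, and had 0.07 (adjusted p = 0.511, edgeR) in the *Stat5b* line. The other basket gene, *Nup50*, had 0.07 (adjusted p = 0.342, edgeR) and 0.32 (adjusted p = 2.25e-05, edgeR) at 48 hr, after -0.63 and -0.28 at 4 hr, where the *Stat5a*-line value was -0.55 without replicate 2.

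*Nup210* (chr6:91013067-91118322), a glycoprotein that spans the envelope, was lower at 4 hr, at -0.54 ± 0.11 and -0.52 ± 0.11 on the log2 scale, and higher at 48 hr, at 0.63 ± 0.11 and 0.30 ± 0.11. In WT cells of the *Stat5b* line it was already at 55.9, 59.3 and 61.3 RPKM before IL-2 and at 81.0, 76.8 and 86.7 RPKM at 48 hr. Without replicate 2 of *Stat5a*-line WT cells at 4 hr, the value at 4 hr in that line was -0.33 ± 0.08 (adjusted p = 0.000716, edgeR). None of these changes reached a fold of 2.

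Importin alpha proteins are the adaptors that read the classical nuclear localization signal. *Kpna2* (chr11:106988629-106999525), the adaptor typical of dividing cells, had the largest rise of all 42 members in both lines. In the *Stat5a* line WT cells gave 10.6, 10.7 and 11.7 RPKM at 0 hr, 22.0, 15.3 and 20.3 at 4 hr, 36.1, 43.8 and 36.7 at 24 hr and 131.5, 158 and 150.03 at 48 hr. In the *Stat5b* line they gave 10.03, 10.4 and 9.39 RPKM at 0 hr, 22.5, 22.5 and 23.9 at 4 hr, 39.5, 44.4 and 47.8 at 24 hr and 164, 161 and 168 at 48 hr. Each time point lay above the one before with no overlap in both lines, and the 48 hr log2 fold changes were 3.53 ± 0.14 (adjusted p = 4.27e-22, edgeR) and 3.87 ± 0.14 (adjusted p = 6.03e-23, edgeR).

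The other adaptors ranged from lower to higher. *Kpna1* (chr16:35983288-36037136), a widely expressed adaptor, fell: its WT libraries of the *Stat5a* line were at 26.7, 28.0 and 22.2 RPKM at 0 hr, 13.6, 15.1 and 13.3 at 24 hr and 17.7, 19.4 and 19.0 at 48 hr. It was called lower at 24 hr in that line, at -1.05 ± 0.11 (adjusted p = 3.18e-10, edgeR), and had -0.67 in the *Stat5b* line. *Kpna3* rose by 1.37 and 1.70 at 48 hr and *Kpna6* by 1.06 and 0.93. *Kpna4*, a close relative of *Kpna3*, had -0.03 (adjusted p = 0.752, edgeR) and 0.13 (adjusted p = 0.15, edgeR).

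The makeup of the adaptor pool therefore differed between times. On the RPKM scale, *Kpna2* made up 12.6% ± 0.609 (SD, n = 3) of the summed 5 importin alpha genes in *Stat5a*-line WT cells at 0 hr, 31.9% ± 1.08 at 24 hr and 59.4% ± 1.17 at 48 hr. In WT cells of the *Stat5b* line these shares were 12.5% ± 0.725, 33.9% ± 2.45 and 61.2% ± 0.530. Over the same 48 hr the share of *Kpna1* went from 29.5% to 7.61% and from 27.0% to 7.43%. In KI cells at 48 hr *Kpna2* held 49.9% ± 3.03 of the *Stat5a* pool and 39.3% ± 3.13 of the *Stat5b* pool, and the libraries of WT and KI cells did not overlap in either line.

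**Figure D2:**
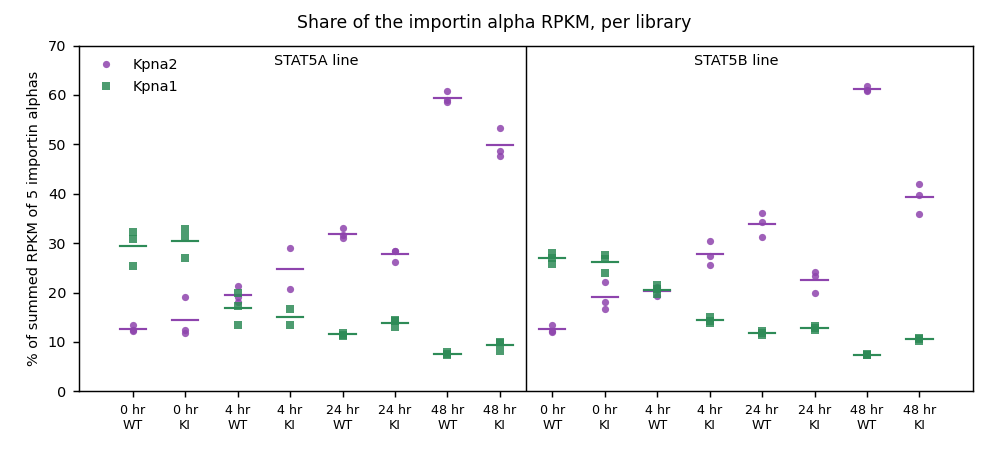
Shares of *Kpna2* (circles) and *Kpna1* (squares) in the summed RPKM of the 5 importin alpha genes (y axis, percent) by time with IL-2 and genotype (x axis), one panel per line. Points are libraries and dashes group means. For *Kpna2*, WT cells reached 59.4% and 61.2% at 48 hr, and KI cells 49.9% (*Stat5a*) and 39.3% (*Stat5b*).

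The importin beta family, which carries cargo through the FG barrier directly or through an adaptor, was represented by 11 genes. At 48 hr 4 and 5 were called higher in the *Stat5a* and *Stat5b* lines, with medians of 0.88 and 0.95. *Ipo5* (chr14:120896840-120948046), an importer of histones and ribosomal proteins, had the largest rise of the family. Its WT libraries of the *Stat5b* line were at 19.1, 21.4 and 21.9 RPKM at 0 hr, 65.3, 69.8 and 65.7 at 24 hr and 99.6, 96.6 and 99.7 at 48 hr. The libraries of each time were tightly grouped and well apart from the next, and the log2 fold changes at 48 hr were 2.00 ± 0.06 (adjusted p = 8.99e-25, edgeR) and 2.07 ± 0.06 in the *Stat5a* and *Stat5b* lines.

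*Kpnb1* (chr11:97159710-97187892), importin beta 1 and the partner of every adaptor, had the highest mean RPKM of the members. It went from 45.1, 43.3 and 50.9 RPKM to 124.6, 144.4 and 127.01 RPKM in WT cells of the *Stat5a* line, a log2 fold change of 1.30 ± 0.07, and rose by 1.36 ± 0.07 in the *Stat5b* line. *Ipo11*, an importer of ubiquitin-conjugating enzymes, rose by 1.75 and 1.91, and *Tnpo1*, the transportin of several RNA-binding proteins, by 1.18 and 1.17. *Ipo7*, which carries ribosomal proteins, was lower at 4 hr, at -0.41 (-0.37 without replicate 2) and -0.30, and higher at 48 hr by 0.88 and 1.21. The smallest 48 hr values of the family were those of *Ipo8*, 0.31 and 0.26, which passed the test in both lines, and of *Tnpo2*, 0.51 and 0.25, which did not pass it in the *Stat5b* line (adjusted p = 0.0957, edgeR).

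Of 6 exportins, 3 were called higher at 48 hr in each line, with medians of 0.93 and 1.12. *Xpo1* (chr11:23255909-23297597), the exporter of proteins with a leucine-rich signal, was measured at 28.2, 29.4 and 29.8 RPKM at 0 hr and 53.0, 61.3 and 69.3 RPKM at 48 hr in WT cells of the *Stat5a* line, and at 26.6, 19.3 and 20.2 RPKM and 60.9, 65.7 and 65.0 RPKM in the *Stat5b* line. Its log2 fold change was 0.86 ± 0.15 (adjusted p = 3.06e-06, edgeR) and 1.36 ± 0.15 (adjusted p = 3.56e-10, edgeR), past the fold threshold in the *Stat5b* line, where its 0 hr libraries were lower. *Xpo5*, the exporter of pre-miRNA, rose by 1.39 and 1.35, and *Xpot*, the exporter of tRNA, by 1.25 and 1.34. *Xpo6*, the exporter of actin, was lower at 4 hr, at -0.51 (-0.47 without replicate 2) and -0.54, and had -0.12 (adjusted p = 0.051, edgeR) and -0.13 (adjusted p = 0.0263, edgeR) at 48 hr.

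**Figure D3:**
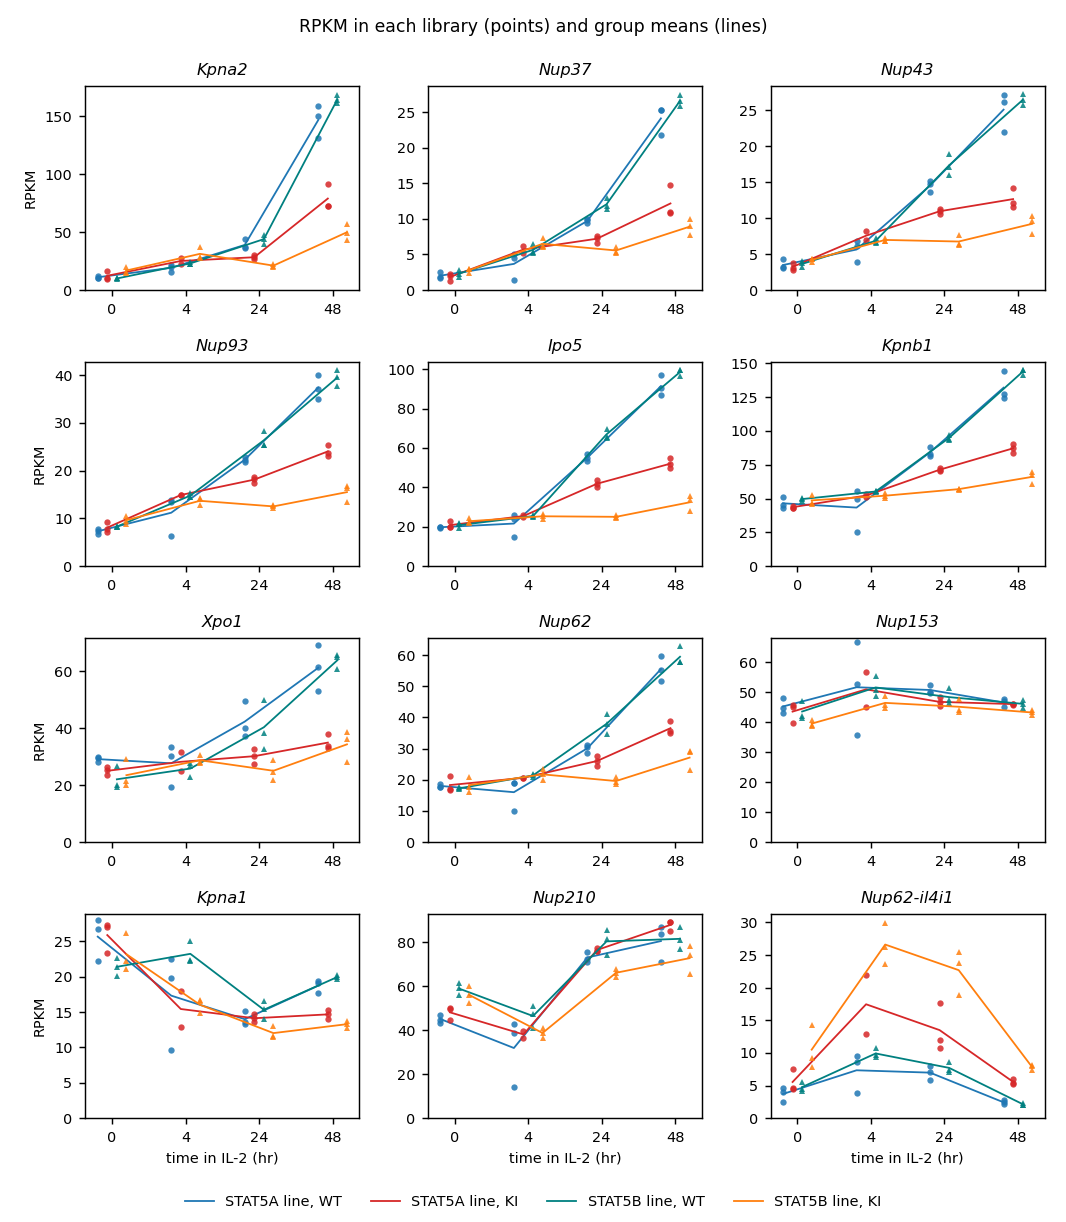
RPKM of 12 members (y axis, one panel per gene) in every library by hours with IL-2 (x axis, times evenly spaced), for each line and genotype. Points are libraries and lines join group means. *Kpna2*, *Nup37* and *Ipo5* climbed steeply in WT cells and less in KI cells, and *Nup153* stayed between 41.4 and 48.0 RPKM in the WT libraries at 0 and 48 hr.

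The KI comparison set KI cells beside their WT littermates at each time. The paper proposes that each mutated protein may also interfere with the STAT5 protein left intact. Loss of phosphorylation and such interference cannot be told apart here. Nor can either be told apart from differences in the cells present before IL-2, which are given below. The point mutations do not remove the RNA of the mutated gene, and its level is no check on the label: at 48 hr *Stat5a* had 0.11 (adjusted p = 0.254, edgeR) in *Stat5a* KI cells and *Stat5b* had 0.47 (adjusted p = 0.000533, edgeR) in *Stat5b* KI cells. At 48 hr 35 of 42 members were lower than WT in *Stat5a* KI cells at adjusted p alone (edgeR), beside 22.8% of all genes and 30.6% of genes with a mean of at least 1 RPKM. In *Stat5b* KI cells 36 of 42 were lower, beside 30.5% and 40.3%. With the fold of 2 in addition, *Nup37* and *Nup43* were called lower in the *Stat5a* line, which was 2 members beside 2.43% of all genes and 1.87% of those at 1 RPKM or more, and neither was called with limma. In the *Stat5b* line 20 members were called lower, beside 9.81% and 11.4%. The median log2 fold change of the members was -0.51 for *Stat5a* KI and -0.97 for *Stat5b* KI, against 0.04 and 0.10 for all genes and -0.04 and -0.09 for genes with a mean of at least 1 RPKM.

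Every role had members lower in KI cells, except the membrane role, which held *Nup210* alone, and a read-through transcript described further on. *Ndc1*, a pore component of the membrane with a name outside the symbol rule, was lower in *Stat5b* KI cells at 48 hr. It was at 5.20, 5.93 and 4.47 RPKM there and at 15.0, 14.9 and 16.6 RPKM in their WT littermates. Of the 6 members of the Y complex, all were lower at adjusted p alone in both lines. In the *Stat5a* and *Stat5b* lines 2 and 6 were called, with medians of -0.72 and -1.40. *Nup37* was at 14.7, 10.8 and 10.95 RPKM in *Stat5a* KI and 9.05, 9.94 and 7.71 RPKM in *Stat5b* KI cells at 48 hr, all below every WT library of the same line. Its log2 fold change against WT was -1.04 ± 0.17 (adjusted p = 4.77e-06, edgeR) and -1.66 ± 0.17 (adjusted p = 1.9e-10, edgeR). *Nup43* had -1.04 ± 0.11 and -1.60 ± 0.11, and *Nup85*, the subunit with the highest mean RPKM, -0.65 and -1.37.

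In the inner ring 5 of 5 genes were lower at adjusted p alone in both lines, and 0 and 3 were called. *Nup93* was at 25.3, 23.1 and 23.7 RPKM in *Stat5a* KI and 16.3, 16.7 and 13.5 RPKM in *Stat5b* KI cells, with log2 fold changes of -0.69 ± 0.08 and -1.43 ± 0.08 against WT. *Nup188* had -0.40 and -0.97, the latter just short of the fold threshold. Among the FG nucleoporins and *Nup88* 5 of 5 were lower at adjusted p alone in both lines and 0 and 2 were called, with *Nup62* at -0.65 ± 0.08 and -1.21 ± 0.09. In the basket *Nup50* was lower, at -0.37 and -0.65, and *Nup153* had -0.07 (adjusted p = 0.534, edgeR) and -0.17 (adjusted p = 0.0615, edgeR). *Nup210* had 0.08 (adjusted p = 0.62, edgeR) and -0.24 (adjusted p = 0.0585, edgeR).

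Among the adaptors 4 of 5 were lower at adjusted p alone in both lines, and 0 and 2 were called. *Kpna2* was at 91.8, 72.8 and 72.2 RPKM in *Stat5a* KI cells and 49.5, 56.99 and 43.0 RPKM in *Stat5b* KI cells at 48 hr. All 6 libraries were below those of the WT littermates, with log2 fold changes of -0.95 ± 0.13 (adjusted p = 1.82e-07, edgeR) and -1.80 ± 0.13 (adjusted p = 2.18e-14, edgeR). *Kpna3* was lower, at -0.82 and -1.09, while *Kpna4* had -0.18 (adjusted p = 0.0682, edgeR) and -0.17 (adjusted p = 0.0723, edgeR).

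In the importin beta family 9 of 11 genes were lower at adjusted p alone in both lines, and 0 and 5 were called. *Ipo5* was at 55.0, 51.6 and 49.6 RPKM in *Stat5a* KI and 33.4, 35.7 and 28.1 RPKM in *Stat5b* KI cells, with -0.86 ± 0.06 (adjusted p = 6.87e-13, edgeR) and -1.69 ± 0.06 (adjusted p = 2.07e-21, edgeR) against WT. *Kpnb1* was lower, at -0.65 ± 0.07 and -1.20 ± 0.07, and *Ipo7*, at -0.90 ± 0.08 and -1.32 ± 0.08. *Ipo8* and *Tnpo2* did not pass the test in either line, with values from -0.21 to -0.07. Of the exportins, 5 and 6 of 6 were lower at adjusted p alone and 0 and 2 were called. *Xpo1* had -0.86 ± 0.15 and -0.97 ± 0.15 in the *Stat5a* and *Stat5b* lines, and in the latter its KI libraries were at 28.3, 36.2 and 38.5 RPKM, and *Xpo5* had -0.38 and -0.80.

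Many members were already lower in KI cells at 24 hr. In *Stat5b* KI cells 36 members were lower at adjusted p alone (26.3% of all genes) and 10 were called (5.77%), with a median of -0.61 against 0.07 for all genes and -0.08 for those at 1 RPKM or more. In *Stat5a* KI cells 20 were lower at adjusted p alone (9.01% of all genes), with a median of -0.21 against 0.01 and -0.01, and 0 were called by edgeR (1.24% of all genes), DESeq2 or limma, while 28 had an unadjusted p under 0.05. *Ipo5* at 24 hr was at 24.2, 26.0 and 24.8 RPKM in *Stat5b* KI cells and at 65.3, 69.8 and 65.7 RPKM in their WT littermates, and at 41.6, 43.5 and 40.4 and 53.5, 56.8 and 55.1 RPKM in the *Stat5a* line. The KI and WT libraries did not overlap in either line, and the gap was wider in the *Stat5b* line, with log2 fold changes of -0.46 ± 0.06 and -1.45 ± 0.06.

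Fewer members passed the test at 4 hr and before IL-2. At 4 hr 8 members were lower at adjusted p alone in *Stat5a* KI cells (12.7% of all genes) and 11 in *Stat5b* KI cells (12.8%), with medians of -0.01 and -0.12, against 0.04 and -0.03 for all genes and 0.06 and -0.09 for those at 1 RPKM or more. *Nup153* was among them in both lines, at -0.28 and -0.26. Without replicate 2 of *Stat5a*-line WT cells at 4 hr, 7 were lower in *Stat5a* KI cells (5.81% of all genes), with a median of -0.10, and *Nup153* had -0.30 (adjusted p = 0.036, edgeR). Higher in *Stat5a* KI cells at adjusted p alone were *Nup62-il4i1* and *Nup85* (11.9% of all genes), and *Nup62-il4i1* alone without that library (6.42%). *Nup62-il4i1* was called at 1.02 ± 0.23 (2.47% of all genes), and was not called without that library, at 0.86 ± 0.25. At 0 hr no member passed the test in *Stat5a* KI cells by edgeR (2.56% of all genes were higher and 0.880% lower at adjusted p alone), 2 were higher and 1 lower at an unadjusted p under 0.05, and DESeq2 and limma called 0. In *Stat5b* KI cells at 0 hr 2 members were lower at adjusted p alone (9.26% of all genes), *Nup214* and *Xpo6*, at -0.24 and -0.19. Another 2 were higher (13.6% of all genes). They were the read-through *Nup62-il4i1* described further on, the 1 member called higher (7.38%), and *Kpna2*, by 0.70 ± 0.13 (adjusted p = 0.000192, edgeR). The *Kpna2* libraries there were at 15.1, 19.6 and 15.9 RPKM against 10.03, 10.4 and 9.39 RPKM in WT cells, all above. At 4 hr they were again all above, at 28.0, 37.1 and 28.5 RPKM against 22.5, 22.5 and 23.9 RPKM (0.33, adjusted p = 0.0539, edgeR), and at 24 and 48 hr this gene was below WT. Beside it, 8 of 12 genes of the cell cycle fixed as a list were higher in *Stat5b* KI cells at 0 hr at adjusted p alone (13.6% of all genes), and the summed markers of several other cell types stood above WT, those of NK cells below it (3.99 against 10.9 RPKM). The medians were 213 against 52.7 RPKM for B cells, 571 against 56.1 RPKM for red cells, 132.9 against 33.9 RPKM for myeloid cells and 100.2 against 57.1 RPKM for CD4 T cells, and their part in this difference was not tested.

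Members also stood higher after culture with IL-2 in KI cells. Taken against their own 0 hr libraries, 31 members in *Stat5a* KI cells (31.8% of all genes) and 26 in *Stat5b* KI cells (24.7%) were higher at 48 hr at adjusted p alone (edgeR). With the fold of 2, 10 were called in *Stat5a* KI cells (9.31% of all genes), and in *Stat5b* KI cells 2, *Nup37* and *Kpna2*, a share near the 5.56% of all genes. At 24 hr 4 and 0 were called higher (7.36% and 4.59% of all genes), and in *Stat5b* KI cells 13 were higher at adjusted p alone (21.1%). The median log2 fold change of the members at 48 hr was 0.61 and 0.28, against -0.04 and -0.02 for all genes and 0.12 and 0.06 for those at 1 RPKM or more, beside 1.03 and 1.18 in WT cells of the same lines. The ordered climb from 0 to 24 to 48 hr without overlap was seen for 32 members in *Stat5a* KI cells (13.2% of all genes) and for 16 in *Stat5b* KI cells (7.33%). *Kpna2* rose by 2.45 in *Stat5a* KI cells and by 1.38 in *Stat5b* KI cells, where WT cells had 3.53 and 3.87. *Ipo5* rose by 1.08 and 0.32, beside 2.004 and 2.07 in WT cells.

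*Ipo7* and *Ipo4*, both higher with IL-2 in WT cells, did not pass the test as higher at 48 hr in KI cells. *Ipo7* had 0.04 (adjusted p = 0.703, edgeR) in *Stat5a* KI and -0.13 (adjusted p = 0.196, edgeR) in *Stat5b* KI cells, where the libraries were at 24.6, 26.2 and 28.9 RPKM at 0 hr and 26.7, 30.1 and 26.3 RPKM at 48 hr. *Ipo4*, an importer of histones, had 0.16 (adjusted p = 0.186, edgeR) and -0.29 (adjusted p = 0.0228, edgeR). *Kpna1* fell in both, with -1.06 and -0.99.

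**Figure D4:**
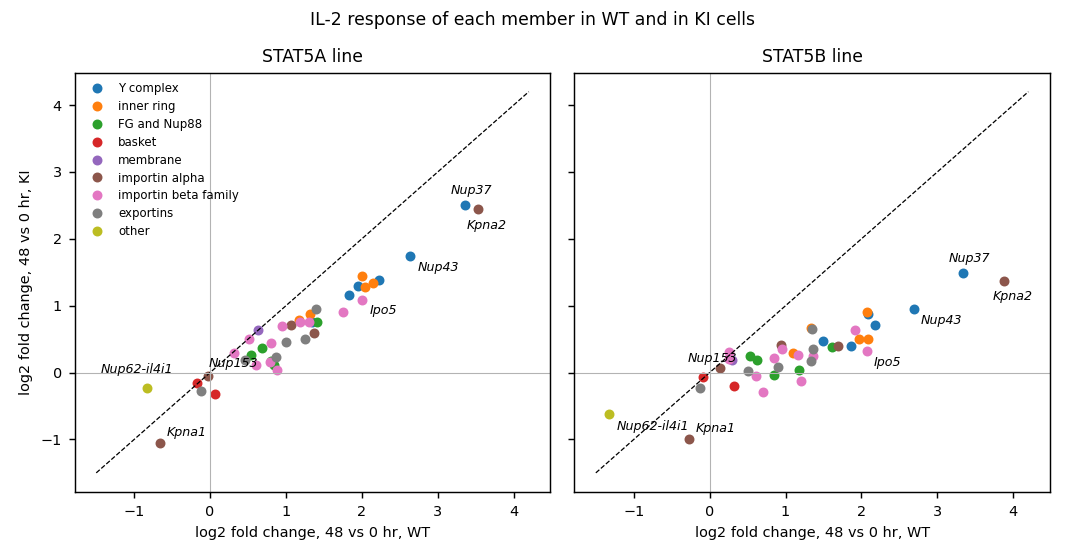
Log2 fold change from 0 to 48 hr of IL-2 in KI cells (y axis) against that in WT cells (x axis) for the 42 members, one panel per line. Colours give the role and the diagonal marks an equal response. Most members lie under it, further in the *Stat5b* line, where *Kpna2* had 3.87 in WT and 1.38 in KI cells.

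The difference between the 2 responses was tested as an interaction of IL-2 and genotype at 48 hr. It was lower in KI cells at adjusted p alone for 34 members in the *Stat5a* line (16.2% of all genes, edgeR) and for 35 in the *Stat5b* line (25.6%). With a fold of 2 it was called for 1 member in the *Stat5a* line, *Kpna2* (3.09% of all genes), and for 18 in the *Stat5b* line (11.1%). Without replicate 1 of *Stat5a* KI cells at 0 hr no member was called in the *Stat5a* line. For *Kpna2* the interaction was -1.08 ± 0.18 (adjusted p = 2.82e-05, edgeR) and -2.50 ± 0.19 (adjusted p = 1.79e-13, edgeR). The median over the members was -0.54 and -0.89, against 0.03 and 0.08 for all genes and -0.03 and -0.05 for those at 1 RPKM or more. This contrast and the IL-2 response of WT cells rest on the same WT libraries, as does the KI comparison at 48 hr.

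The KI effect was compared between the lines. In a test of the difference itself at 48 hr, 22 of 42 members had a lower value in the *Stat5b* line at adjusted p alone (edgeR), beside 7.83% of all genes and 11.1% of genes with a mean of at least 1 RPKM. None of the members was called with a fold of 2 by edgeR, DESeq2 or limma, and 33 had an unadjusted p under 0.05. The median of the difference was -0.41, against 0.00 for all genes and -0.06 for those at 1 RPKM or more. *Ipo5* differed by -0.82 ± 0.09 (adjusted p = 5.45e-07, edgeR), *Kpna2* by -0.85 ± 0.18 (adjusted p = 0.00163, edgeR) and *Nup93* by -0.74 ± 0.12 (adjusted p = 8.43e-05, edgeR). *Nup37*, with -0.62 ± 0.24 (adjusted p = 0.0929, edgeR), and *Xpo1*, with -0.11 ± 0.21 (adjusted p = 0.803, edgeR), did not pass. Each line had its own WT littermates, so that a difference between the lines as such and one between the 2 STAT5 proteins cannot be told apart.

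One member is a nucleoporin in name only. *Nup62-il4i1* is listed by RefSeq as interleukin 4 induced 1B, a read-through transcript that begins at *Nup62* and codes for an amino acid oxidase. It shares 1979 of its 2301 exon bases, 86.0%, with *Il4i1* and 4.95% with *Nup62*, so reads cannot be assigned between it and *Il4i1*, and its RPKM was 0.897 to 1.93 times that of *Il4i1* with a median of 0.940. At 48 hr it stood lower with IL-2 and higher in KI cells, where most of the other 41 members went the other way. In WT cells of the *Stat5b* line it was at 4.17, 4.52 and 5.60 RPKM at 0 hr and 2.33, 2.06 and 2.05 RPKM at 48 hr, and in *Stat5b* KI cells at 9.28, 14.3 and 7.90 RPKM and 8.12, 7.31 and 7.98 RPKM. In between it was higher in both, with 9.31, 9.66 and 10.8 RPKM in WT and 23.6, 29.9 and 26.3 RPKM in KI cells at 4 hr. The KI libraries were above the WT libraries at each of these times, and at 48 hr the log2 fold change was 1.15 ± 0.22 in the *Stat5a* line (adjusted p = 6.57e-05, edgeR) and 1.78 ± 0.23 in the *Stat5b* line (adjusted p = 1.51e-08, edgeR). Leaving it out, which was decided after seeing the data, changed no count of members called higher with IL-2 in WT cells or lower in KI cells over the 47 libraries. At adjusted p alone it was among the members higher with IL-2 at 4 and 24 hr in WT cells of both lines, so that those counts include it.

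The partners of the members in transport were taken as separate lists. Of 8 genes of the RAN cycle, 7 were called higher at 48 hr in WT cells of each line (14.3% and 14.6% of all genes). In KI cells of the *Stat5a* and *Stat5b* lines 2 and 7 were called lower (2.43% and 9.81% of all genes). *Ran* itself rose by 2.12 and 2.246 and was lower in KI cells, at -0.90 and -1.63. *Rcc1*, the nucleotide exchange factor of RAN on chromatin, had 3.08 and 3.25 with IL-2 and -0.99 and -1.95 in KI cells. *Cse1l*, which returns importin alpha to the cytoplasm, rose by 1.87 and 2.03, and *Nutf2*, which carries RAN back into the nucleus, by 1.76 and 1.78.

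Of 12 pore components with other names, 5 were called higher at 48 hr in each line (14.3% and 14.6% of all genes). In KI cells of each line 11 were lower at adjusted p alone (22.8% and 30.5% of all genes). *Ndc1*, which anchors the pore in the membrane, had the largest rise at 2.21 and 2.38. *Tpr*, the filament of the basket, had 0.10 (adjusted p = 0.515, edgeR) and 0.29 (adjusted p = 0.0579, edgeR), so that it and *Nup153* both missed the test. Of 14 mRNA export genes 3 and 4 were called higher (14.3% and 14.6% of all genes, and 17.0% and 17.3% of those at 1 RPKM or more), with *Alyref*, an adaptor that loads the export receptor, at 1.57 and 1.69. *Nxf1*, that receptor, was lower with IL-2, at -0.69 and -0.69. Of 9 genes of the lamina and inner membrane 4 were called higher in each line, beside the same 14.3% and 14.6% of all genes. *Lmnb1*, lamin B1, was at 2.69 and 2.86, while *Sun2*, which ties the envelope to the cytoskeleton, had -0.47 and -0.67.

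**Figure D5:**
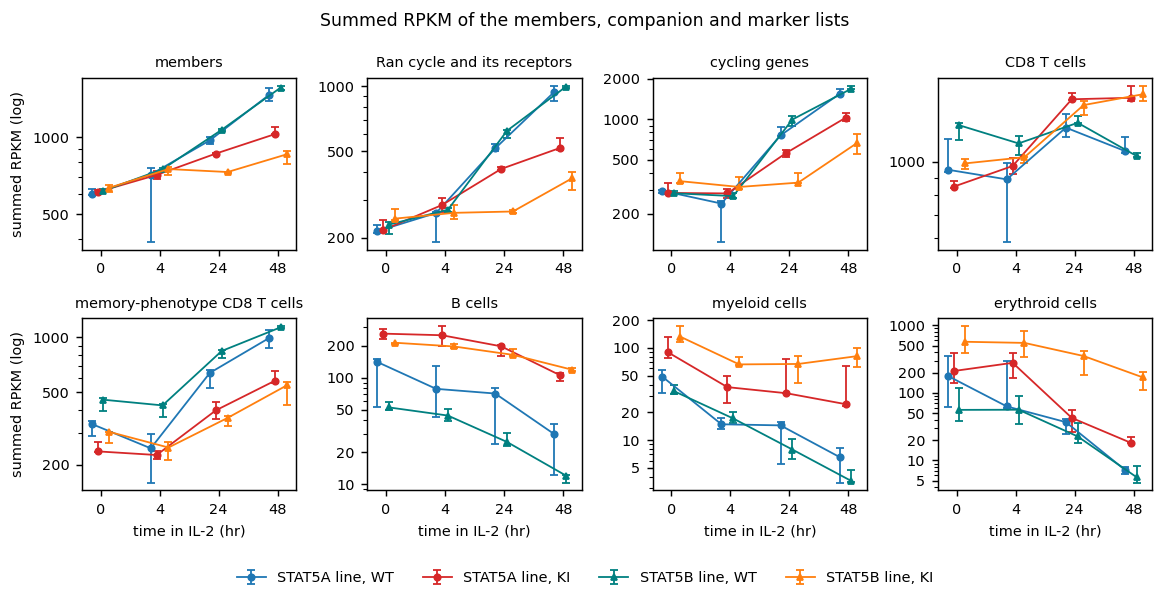
Summed RPKM of the members and of 7 other gene lists (y axis, log scale, one panel per list) by hours with IL-2 (x axis, times evenly spaced), for each line and genotype. Points are group medians and bars run from the lowest to the highest library. The median sum of the members went from 617 to 1568 RPKM in WT and from 635 to 858 RPKM in KI cells of the *Stat5b* line, while the cycling genes moved the same way and the B-cell markers stood higher in KI cells.

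Cell-cycle genes and markers of other cells moved with these differences, and their part in them was not tested. All 12 cycling genes were called higher at 48 hr in WT cells of both lines (14.3% and 14.6% of all genes), with medians of 2.66 and 2.77. In KI cells 1 and 12 were called lower in the *Stat5a* and *Stat5b* lines (2.43% and 9.81% of all genes), with medians of -0.66 and -1.52. At 48 hr 6 of 6 B-cell markers were called higher in KI cells of both lines (6.35% and 16.5% of all genes), as were 8 and 9 of 9 myeloid markers, while 0 and 6 of 6 red cell markers were. The summed myeloid markers, led by *Lyz2*, had a median of 6.54 RPKM in WT and 24.6 RPKM in *Stat5a*-line KI cells at 48 hr, and of 3.60 and 81.5 RPKM in the *Stat5b* line. The red cell sum, led by *Hbb-bs*, had 7.25 and 18.2 RPKM, and 5.63 and 170.0 RPKM. *Trem2*, a myeloid marker, was at 0 in 24 libraries.

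The summed CD8 markers were below WT in KI cells at 0 hr and above it at 48 hr, and none of the 5 was called at either time. At 0 hr 2 of 5 in the *Stat5a* line and 5 of 5 in the *Stat5b* line were lower at adjusted p alone (edgeR), beside 0.880% and 9.26% of all genes. Their summed RPKM at 0 hr ran from 932 to 1164 in WT and from 837 to 881 in KI cells of the *Stat5a* line, and from 1158 to 1298 and from 954 to 1016 in the *Stat5b* line, so that every KI library was below every WT library. At 48 hr 5 of 5 were higher at adjusted p alone in both lines (edgeR), beside 21.5% and 33.1% of all genes, and their sum had a median of 1075 RPKM in WT and 1535 RPKM in KI cells of the *Stat5a* line, and of 1039 and 1572 RPKM in the *Stat5b* line. Of 6 genes of the memory phenotype, of which *Ly6c2* was the most abundant, 4 and 5 were lower in KI cells at 48 hr at adjusted p alone in the *Stat5a* and *Stat5b* lines, beside 22.8% and 30.5% of all genes. With the fold of 2, 1 and 4 were called, beside 2.43% and 9.81%. Their summed RPKM was already below WT at 0 hr, from 237 to 268 in KI against 288 to 350.03 in WT cells of the *Stat5a* line and from 263 to 304 against 393 to 463 in the *Stat5b* line, with no overlap. *Cxcr3*, a chemokine receptor, did not pass in either line, with -0.12 (adjusted p = 0.61, edgeR) and 0.04 (adjusted p = 0.854, edgeR), and *Cd44* did not pass in the *Stat5a* line, with -0.32 (adjusted p = 0.0774, edgeR). Of 4 NK-cell genes 1 was called lower in the *Stat5a* line (2.43% of all genes). In the *Stat5b* line 2 were called lower (9.81%) and 2 higher (16.5%). Of 5 CD4 T-cell genes 2 and 3 were called higher in KI cells (6.35% and 16.5% of all genes), with sums of 10.2 and 15.5 RPKM, and of 8.81 and 23.6 RPKM.

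*Myc*, a transcription factor that drives growth in activated T cells, was taken beside the members. Its WT libraries of the *Stat5b* line were at 21.7, 19.1 and 21.2 RPKM at 0 hr, 89.4, 102 and 99.5 at 4 hr and 93.0, 90.1 and 94.8 at 48 hr, and those of *Stat5b* KI cells at 31.2, 35.7 and 25.2, 43.0, 39.2 and 35.9 and 45.4, 42.0 and 40.2 RPKM. KI libraries were all above the WT libraries at 0 hr, by 0.51 ± 0.18 on the log2 scale (adjusted p = 0.0335, edgeR), and all below them at 4 and 48 hr. The log2 fold change at 48 hr was -1.20 ± 0.18 (adjusted p = 2.83e-07, edgeR), against -0.56 ± 0.17 (adjusted p = 0.00867, edgeR) in the *Stat5a* line.

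Promoter sequences of the members were read from RefSeq on GRCm38.p6, from 250 bases before to 50 after each start site. They are shown for members whose values turn on the comparisons above and that hold a motif of one of the factors named. Of the 42 members, 33 were matched to a promoter. The E-box CACGTG, the motif of MYC and related factors, was found in 7 of the 33, or 21.2%, namely *Ipo4*, *Ipo7*, *Nup188*, *Nup54*, *Nup93*, *Tnpo2* and *Xpot*, against 8.09% of 27025 genes and 7.15% of 32851 windows. Its letters read the same on both strands. The STAT motif TTCNNNGAA, searched on both strands and also the same on each, was found in 1 of 33, or 3.03%, *Nup107*, against 9.55% of genes and 8.30% of windows. No member held both. The shares of genes and windows cover genes at any level of expression, while every member had a mean of at least 1 RPKM. Capitals mark the match. The first sequence is at chr8:94214314-94214613 (+ strand), the second at chr7:110018065-110018364 (+ strand) and the third at chr10:117792656-117792955 (- strand), each 5′ to 3′.
Nup93: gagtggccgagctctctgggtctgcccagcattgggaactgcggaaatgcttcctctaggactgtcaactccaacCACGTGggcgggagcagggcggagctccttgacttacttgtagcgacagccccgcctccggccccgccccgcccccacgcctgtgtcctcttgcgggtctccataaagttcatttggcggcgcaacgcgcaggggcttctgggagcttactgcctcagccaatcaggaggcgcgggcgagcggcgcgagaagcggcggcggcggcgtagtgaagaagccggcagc
Ipo7: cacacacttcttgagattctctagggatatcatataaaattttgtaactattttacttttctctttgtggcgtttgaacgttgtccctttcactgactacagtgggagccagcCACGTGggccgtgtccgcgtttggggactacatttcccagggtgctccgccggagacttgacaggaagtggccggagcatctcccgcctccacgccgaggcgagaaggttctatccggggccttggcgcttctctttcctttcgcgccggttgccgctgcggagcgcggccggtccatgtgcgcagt
Nup107: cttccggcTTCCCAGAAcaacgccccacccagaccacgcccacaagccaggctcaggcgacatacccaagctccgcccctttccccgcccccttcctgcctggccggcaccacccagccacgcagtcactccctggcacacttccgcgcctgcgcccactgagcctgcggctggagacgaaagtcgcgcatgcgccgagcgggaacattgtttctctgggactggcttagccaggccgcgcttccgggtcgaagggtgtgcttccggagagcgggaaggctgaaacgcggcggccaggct

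The E-box in these promoters began 175 bases before the start site of *Nup93* and closer to it in *Ipo7*, and the STAT motif 242 bases before that of *Nup107*. The 7 genes with an E-box ranged widely in response. At 48 hr in WT cells of the *Stat5b* line *Nup93* had 2.08, *Xpot* 1.34, *Ipo7* 1.21, *Nup54* 1.18, *Nup188* 1.10, *Ipo4* 0.70 and *Tnpo2* 0.25. *Kpna2* and *Nup37*, which rose most, were not among the members in which a motif was found. Whether their promoters were among those searched is not given here. Members not matched to a promoter were not searched.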

How the data were processed

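RNA-seq of CD8+ T cells was analysed in 48 libraries of 16 groups; ChIP-seq and protein data were not analysed here. The authors made single-end libraries from poly(A) RNA, aligned the reads to mm10 and counted uniquely mapped reads per RefSeq transcript. The submitters' processing notes name Bowtie2 2.2.6, TopHat2 2.0.11, SAMtools 0.1.8, bedtools 2.25.0 and edgeR. The counting program and its strand setting are not given in the sources used here, so overlapping genes are uncertain. The deposited tables hold raw counts and RPKM per transcript, and the longest transcript of each symbol was kept. RPKM is the authors' value, scaled to all mapped reads. It was used for levels, sums, the order and overlap of libraries, and limma. These move with the share of reads on longest transcripts. That share was 70.7%, 74.1% and 73.8% in *Stat5b*-line WT libraries at 0 hr and 83.2%, 83.7% and 84.4% at 48 hr. In *Stat5b* KI libraries it was 70.7%, 72.7% and 68.7% at 0 hr and 78.5%, 77.0% and 72.6% at 48 hr. No column belonged to another sample.

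Counts were tested with edgeR 4.0.16 (R 4.3.3; filterByExpr with a minimum count of 10, TMM, quasi-likelihood fit over all 47 libraries, 15566 genes, adjusted p of at most 0.05, fold of at least 2 for a call). The steps were tested on simulated data. DESeq2 1.42.0 and limma 3.58.1 (on log2 of RPKM plus 1) were alternatives. Between replicates, the chi-square per gene lay between 4.63 and 1784, so none were counted as 1 library. Deviations of same-numbered WT libraries from their group means correlated over 0.1 in every pair for 24 hr (0.206, 0.273 and 0.419) and 48 hr (0.166, 0.117 and 0.192) against 0 hr in the *Stat5a* line, and not in the other comparisons. This pairing comes from the data, not from the labels.

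The members, lists and tests were chosen with earlier results of these data known. Named in the text, by rule, were the members of each role with the highest mean RPKM and the highest and lowest IL-2 response at 48 hr, and those with the most extreme KI effects; the others were chosen after their values were seen. Counting error is small at these depths, and the precision is set by the 3 libraries of a group. RefSeq promoters were matched by symbol.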

Additional observations from a re-analysis of the deposited data

Results flagged for a closer look

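The effect of the KI at 48 hr differed between the 2 lines for 22 members at adjusted p alone, by edgeR's test of the difference itself, all of them lower in the *Stat5b* line. Among the members named by rule, the log2 KI effect of the *Stat5b* line minus that of the *Stat5a* line was -0.85 for *Kpna2*, -0.82 for *Ipo5*, -0.74 for *Nup93* and -0.72 for *Nup85*. It was -0.57 for *Nup188*, -0.56 for both *Nup62* and *Nup43*, -0.55 for *Kpnb1* and -0.51 for *Nup160*. The smallest of these differences were -0.42 for both *Ipo7* and *Xpo5*, and -0.28 for *Nup50*. None reached a fold of 2. B-cell, myeloid and red cell markers also stood further above WT in *Stat5b* KI than in *Stat5a* KI cells at 48 hr, and their part in these differences was not tested.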

How the results depend on the processing

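Counts of called members depended most on the fold threshold. At adjusted p alone (edgeR) the members higher with IL-2 in WT cells at 4, 24 and 48 hr were 21, 35 and 36 in each line, beside 29.5%, 30.1% and 34.1% of all genes in the *Stat5a* and 25.1%, 29.5% and 33.1% in the *Stat5b* line. Those lower in KI cells at 4, 24 and 48 hr were 8, 20 and 35 for *Stat5a* KI, against 11, 36 and 36 for *Stat5b* KI, which had 2 lower at 0 hr (9.26% of all genes). The interaction passed for 34 and 35, and the difference between the lines for 22. At 4 hr in the *Stat5a* line, where 0 were called, 2 were called with all 48 libraries, 1 without a filter on low counts and 2 on each gene's transcript with the most reads. With limma 0 members, not 2, were called lower in *Stat5a* KI cells at 48 hr, and 16, 7 and 17 in the *Stat5b* line at 48 hr, at 24 hr and for the interaction, against 20, 10 and 18. Leaving out each library in turn gave 0 to 3 members for IL-2 at 4 hr with the *Stat5a* line, and 1 to 3 with the *Stat5b* line (1 without replicate 2 of WT cells at 0 hr). For the interaction in the *Stat5a* line it gave 0 to 3, with 0 without replicate 1 of KI cells at 0 hr, and 3 without replicate 3 of WT cells at 0 hr or replicate 1 of KI cells at 48 hr. With the replicate number as a block, every count was the same as without it. The members named by rule were followed over all settings, those with a library left out included. This was done at 48 hr for IL-2 in WT cells and for KI against WT. No value that was called in the main or the other setting changed sign, and sign changes of values called in neither were not counted. There 5 calls were lost, all with limma, and 21 were gained. Lost were *Nup62-il4i1* (IL-2 in the *Stat5b* line, KI in the *Stat5a* line), *Nup37* and *Nup43* (KI, *Stat5a* line) and *Nup160* (KI, *Stat5b* line). Without replicate 1 of KI cells at 0 hr, *Kpna2* lost its interaction call in the *Stat5a* line. Without replicate 2 of *Stat5a*-line WT cells at 4 hr, *Nup62-il4i1* lost its KI call at 4 hr. There *Kpnb1*, *Nup210* and *Nup50* changed sign, from 0.04, 0.05 and 0.04 to -0.08, -0.17 and -0.05, and passed the test in neither setting. Backgrounds over genes with a mean of at least 1 RPKM, the responses of KI cells to IL-2 and the settings without replicate 2 of WT cells at 4 hr or without *Nup62-il4i1* were chosen after seeing the data. The effect of depth on these calls was not tested; members had a mean of over 5 RPKM, and single libraries had less.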
